A study of Mus musculus with 15 samples.

Results

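The genes described here were the 5 members of the HNF4 and FOXA families of transcription factors that had an entry in the table of 38283 genes, chosen by symbol: Hnf4a, Hnf4g, Foxa1, Foxa2 and Foxa3. Their transcripts were measured by RNA sequencing in 15 samples of islet cells purified by flow cytometry from C57BL/6 mice. Alpha cells (n = 5) and beta cells (n = 4) were sorted from Glu-Venus mice, in which the proglucagon promoter drives the fluorophore Venus; beta cells were the Venus-negative cells chosen by scatter and autofluorescence, so no reporter marked them. Delta cells (n = 6) were sorted from Sst-CreXROSA26EYFP/EYFP mice, in which Cre under the somatostatin promoter switches on EYFP, so mouse line and cell type changed together between delta cells and the rest. No group received a treatment, ages were not given in the sources used here, and each sample pooled the islets of several mice. P-values therefore measure the spread between pools.

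HNF4 alpha and HNF4 gamma are nuclear receptors that bind DNA as dimers at direct repeats of a hexamer, and they maintain gene programmes of liver, gut, kidney and islet; loss of one copy of HNF4A causes a form of maturity-onset diabetes of the young. FOXA proteins carry a forkhead domain shaped like a linker histone and are known as pioneer factors, because they bind sites in compact chromatin and open them to other factors. In the islet, Foxa1 and Foxa2 act in pancreas formation and in mature hormone secretion, and Foxa3 is best known from liver and gut endoderm.

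Hnf4a passed the test in both comparisons with delta cells, at 12.7 FPKM (fragments scaled by the length of the transcript and the mapped reads of the library) in delta cells against 2.66 in alpha cells and 2.46 in beta cells. Foxa3 was also highest in delta cells (11.5 FPKM) and lowest in beta cells (2.00 FPKM); every delta sample lay above all others, but in the fit across genes its difference passed between delta and beta cells and not between delta and alpha cells. Foxa2 had the highest mean FPKM of the members in all 3 cell types. Hnf4g was low in all of them, and Foxa1 was listed at 0 or under 0.1 FPKM throughout. No member passed the test between beta and alpha cells.

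Hnf4a lies at chr2:163506808-163572910 on the plus strand (GRCm38) and has 5 annotated transcripts. RefSeq gives it 2 start sites 40298 bases apart, which is why both of its promoters are shown: the upstream one is commonly called P2 and the downstream one P1, and a value per gene cannot tell apart RNA from either. Foxa3 lies at chr7:19013284-19023538 on the minus strand with 1 annotated transcript, and its promoter is shown because Foxa3 was the other member higher in delta than in beta cells. The following sequences are the 250 bases before each start from RefSeq (GRCm38.p6), read 5′ to 3′ on the gene's strand, with capitals for the motif matches found.
Hnf4a upstream start, chr2:163506607-163506856, plus strand: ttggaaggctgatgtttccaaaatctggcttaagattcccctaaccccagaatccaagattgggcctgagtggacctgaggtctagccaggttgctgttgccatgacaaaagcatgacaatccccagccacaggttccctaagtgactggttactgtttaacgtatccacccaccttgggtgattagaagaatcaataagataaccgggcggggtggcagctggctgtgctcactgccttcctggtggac
Hnf4a downstream start, chr2:163546905-163547154, plus strand: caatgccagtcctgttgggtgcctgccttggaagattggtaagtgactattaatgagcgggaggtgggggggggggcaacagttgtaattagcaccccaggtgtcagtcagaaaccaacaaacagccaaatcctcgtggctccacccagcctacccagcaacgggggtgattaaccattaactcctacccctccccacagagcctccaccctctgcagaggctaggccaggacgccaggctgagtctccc
Foxa3, chr7:19023540-19023789, minus strand: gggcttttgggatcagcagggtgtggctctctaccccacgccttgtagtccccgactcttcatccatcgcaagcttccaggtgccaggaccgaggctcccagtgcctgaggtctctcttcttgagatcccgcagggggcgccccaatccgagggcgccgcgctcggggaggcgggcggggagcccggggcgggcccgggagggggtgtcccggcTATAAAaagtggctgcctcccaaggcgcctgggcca
The letters searched on both strands were CAAAGTCCA for HNF4, TGTTTAC for FOXA and TATAAA for the TATA box, none of which overlapped another match. The capitals in the Foxa3 promoter mark TATAAA at position -36 from the start. Neither Hnf4a promoter held any of the 3 motifs. Among 32851 promoter windows of 300 bases, 0.475% held the HNF4 motif, 3.65% the FOXA motif and 13.6% the TATA box. A match describes the letters only. No promoter is shown for the other members, Hnf4g, Foxa1 and Foxa2.

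Members of one family resemble each other in sequence, so the annotated transcripts were compared to see whether reads of 50 nt could fall on more than 1 member. No stretch of 50 nt was shared by any pair of members. Given below are the longest coding run that Foxa3 shares with the other FOXA genes and the longest that the HNF4 genes share. They are on the transcript strand in lower case, with coordinates in GRCm38. Only identical letters were compared, so the comparison does not cover reads aligned with mismatches.
Foxa3 with Foxa1 and with Foxa2, chr12:57542819-57542838, chr2:148044313-148044332 and chr7:19014739-19014758 in the order Foxa1, Foxa2 and Foxa3, all minus strand: tggatcatggacctcttccc
Hnf4a and Hnf4g, chr2:163562549-163562565 and chr3:3648064-3648080, both plus strand: catctgctgcttggagc
These runs were 20 and 17 nt long, and each lay within 1 coding exon of each gene.

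The labels were checked against the transcripts that define each cell type. The alpha cell markers Gcg, Irx1, Irx2 and Ttr were all higher in alpha than in beta or delta cells, and all 7 beta cell markers, such as Ins2 and Mafa, were higher in beta cells than in either other type. The 4 delta cell markers Sst, Hhex, Rbp4 and Ghsr were all higher in delta than in beta cells, and 3 of them, Rbp4 being the exception, were higher in delta compared with alpha cells. Between 14761 and 18559 genes were above 0 in a sample. The depth could be read from steps of single reads in 4 samples, which gave 7.42 M to 30.4 M reads, and is unknown in the other 11. Samples of each cell type also differed in the summed FPKM of 85 ribosomal protein genes: 6 samples, namely alpha 1 to 3, beta 2, delta 1 and delta 2, lay above 50000 FPKM (the higher set) and the other 9 below it (the lower set). No label names these sets as a batch, so values are given within them.

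Hnf4a encodes HNF4 alpha, the more widely studied of the HNF4 receptors. In delta samples 1 to 6 it was at 13.0, 9.79, 13.3, 14.7, 13.9 and 11.7 FPKM. In alpha samples 1 to 5 it was at 1.07, 1.63, 0.448, 3.98 and 6.16 FPKM, and in beta samples 1 to 4 at 1.02, 1.06, 5.03 and 2.73 FPKM. Every delta sample lay above every alpha and every beta sample, whereas alpha and beta cells covered nearly the same range. Alpha cells averaged 2.66 ± 2.37 FPKM (SD, n = 5), beta cells 2.46 ± 1.89 (SD, n = 4) and delta cells 12.7 ± 1.75 (SD, n = 6). Mean FPKM in delta cells was thus 4.79 times that of alpha cells and 5.18 times that of beta cells. As these were bulk samples, a larger share of cells expressing a gene and more RNA per cell cannot be told apart.

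**Figure D1:**
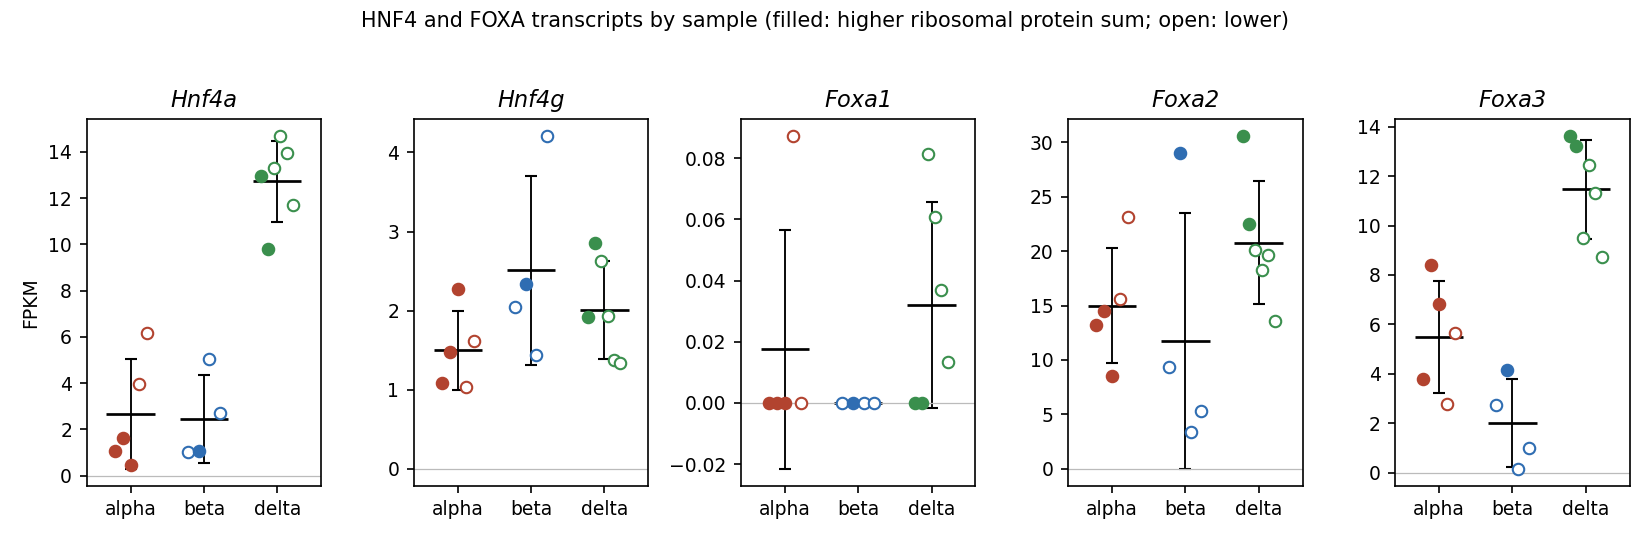
FPKM (vertical axis, linear) of each member in every sample of alpha, beta and delta cells, with horizontal lines at the mean and bars of 1 SD; filled points are samples of the higher ribosomal set and open points those of the lower set. All 6 delta samples lie above all other samples for Hnf4a and Foxa3, and the vertical scale differs between panels (Foxa1 stays under 0.1 FPKM).

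On the log2(FPKM + 1) scale, which understates changes of low genes, Hnf4a was higher in delta compared with alpha cells by 2.14 (SE 0.405, 95% confidence interval 1.28 to 3.00; adjusted p = 0.00274, limma). It was the 1 member of the 4 tested that passed in this comparison, where 6.81% of the 14405 genes tested passed in either direction and 5.33% were higher in delta cells. Against beta cells the difference was 2.13 (SE 0.432, 95% interval 1.22 to 3.05; adjusted p = 0.00326, limma). Of the 4 tested members, 2 passed there, against 14.7% of all genes in either direction and 11.7% higher in delta cells. In beta against alpha cells the difference of Hnf4a was 0.01 (95% interval -0.94 to 0.96; adjusted p = 1, limma), and 0 of the 4 members passed (7.66% of all genes in either direction, 2.84% higher in beta cells). At an unadjusted p under 0.05 in that last comparison, 1 of the 4, Foxa3, would have been counted. Both comparisons with delta cells use the same delta samples and are not independent.

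The levels of Hnf4a were also compared by an exact two-sided permutation test, with p = 0.00433 against alpha cells and p = 0.00952 against beta cells, each the smallest that these sample numbers can give. In all, 15 such tests were run over the 5 members, without adjustment. Complete separation was not rare among all genes: every delta sample lay above every alpha sample in 4.97% of the genes tested, and above every beta sample in 12.3%.

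Within the sets of samples split by ribosomal protein sums, alpha cells differed among themselves in Hnf4a. The 3 alpha samples of the higher set averaged 1.05 FPKM (0.448 to 1.63) and the 2 of the lower set 5.07 FPKM (3.98 and 6.16), so the sets did not overlap. Delta cells were at 11.4 FPKM in the 2 samples of the higher set and 13.4 FPKM in the 4 of the lower set. The difference between delta and alpha cells was therefore smaller in the lower set, at 1.27 on the log2 scale (adjusted p = 0.176, limma, samples of the lower set alone), and 2.62 in the higher set (adjusted p = 0.0750, limma). With the set as a covariate in the fit of all samples the call was kept. Between delta and beta cells Hnf4a still differed in the lower set, but in the higher set, with 1 beta sample whose spread was taken from the other groups, the difference was 2.58 (adjusted p = 0.0705, limma).

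**Figure D2:**
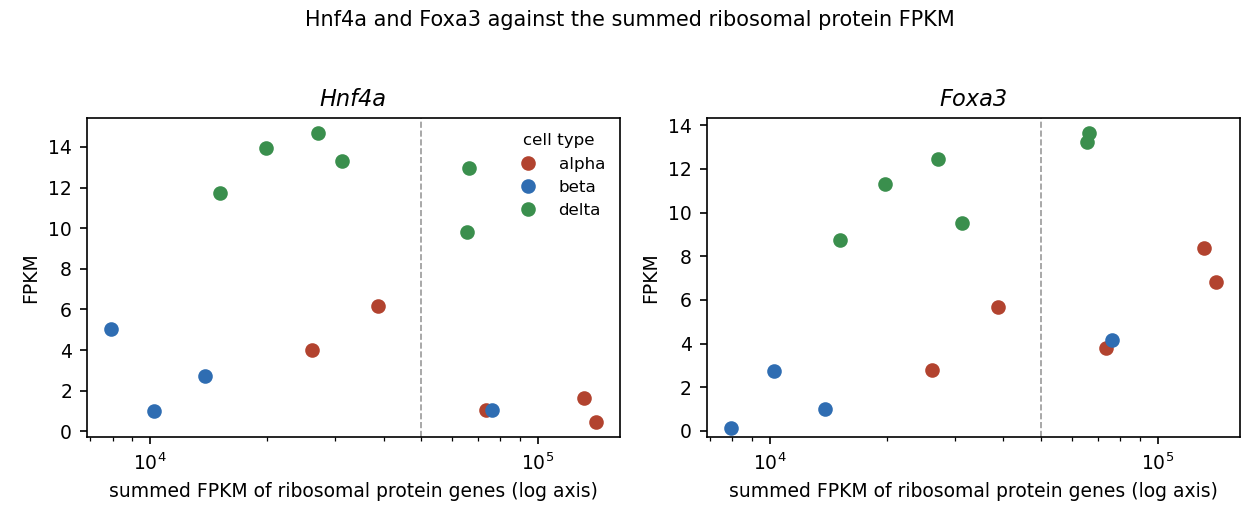
FPKM of Hnf4a (left) and Foxa3 (right) on the vertical axis against the summed FPKM of 85 ribosomal protein genes on a logarithmic horizontal axis; each point is a sample, coloured by cell type, and the dashed line marks 50000 FPKM. On both sides of the line the delta samples lie above the alpha and beta samples, and for Hnf4a the alpha samples right of the line lie below those left of it.

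Hnf4g encodes HNF4 gamma, the receptor best known from the gut. It was at 1.09, 1.48, 2.27, 1.03 and 1.62 FPKM in alpha samples 1 to 5, at 2.04, 2.34, 1.44 and 4.21 FPKM in beta samples 1 to 4, and at 1.92, 2.85, 2.62, 1.94, 1.38 and 1.34 FPKM in delta samples 1 to 6. The ranges of the 3 cell types overlapped throughout, and beta sample 4 was the highest of all. Alpha, beta and delta cells averaged 1.4996 ± 0.4996 (SD, n = 5), 2.51 ± 1.195 (SD, n = 4) and 2.01 ± 0.6246 FPKM (SD, n = 6). None of its log2 differences passed, at 0.45 for beta minus alpha (95% interval -0.16 to 1.07; adjusted p = 0.370, limma), 0.26 for delta minus alpha (-0.29 to 0.82) and -0.19 for delta minus beta cells (-0.78 to 0.40).

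The balance of the HNF4 receptors is given as a description, with no test, on the FPKM scale, which takes account of transcript length. The ratio of Hnf4a to Hnf4g within a sample was between 3.43 and 10.1 in the 6 delta samples, with a median of 7.16. It was between 0.197 and 3.86 in alpha cells and between 0.451 and 3.49 in beta cells, so the ranges overlapped slightly. Hnf4a exceeded Hnf4g in 6 of 6 delta samples, 3 of 5 alpha samples and 1 of 4 beta samples.

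Foxa2 encodes the FOXA factor with the best known role in the islet, where it acts upstream of Pdx1 and of the subunits of the ATP-sensitive potassium channel. It was at 13.2, 14.5, 8.50, 15.6 and 23.1 FPKM in alpha samples 1 to 5 and at 9.39, 29.0, 3.34 and 5.28 FPKM in beta samples 1 to 4. In delta samples 1 to 6 it was at 30.6, 22.5, 20.1, 18.3, 19.7 and 13.6 FPKM. Beta cells were spread most widely: beta sample 2, the 1 beta sample of the higher ribosomal set, was near the highest delta sample, and the other 3 lay below the delta range. Alpha cells averaged 14.99 ± 5.29 FPKM (SD, n = 5), beta cells 11.8 ± 11.8 (SD, n = 4) and delta cells 20.8 ± 5.64 (SD, n = 6).

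Differences in Foxa2 did not pass the test, at -0.67 for beta minus alpha (95% interval -1.69 to 0.34; adjusted p = 0.427, limma), 0.47 for delta minus alpha (-0.45 to 1.39; adjusted p = 0.656, limma) and 1.14 for delta minus beta cells (0.17 to 2.12; adjusted p = 0.112, limma). The last of these depended on 1 sample. Without beta sample 2 it was 1.69 (adjusted p = 0.00572, limma), and over the lower set alone 1.51 (adjusted p = 0.0174, limma). In the lower set Foxa2 averaged 19.4 FPKM in 2 alpha, 6.00 in 3 beta and 17.9 in 4 delta samples, and there beta minus alpha was -1.61 (adjusted p = 0.0465, limma). In the higher set the values ran the other way, with Foxa2 at 12.1 FPKM in 3 alpha samples, 29.0 in the 1 beta sample and 26.6 in 2 delta samples. There beta minus alpha was 1.23 and delta minus beta was -0.14. With 1 beta sample, that set cannot show the spread of beta cells, so no direction is read from it.

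Foxa3 encodes the smallest of the FOXA factors, a regulator of glucose handling genes in liver. It was at 13.6, 13.2, 9.51, 12.5, 11.3 and 8.73 FPKM in delta samples 1 to 6. Alpha samples 1 to 5 gave 3.78, 8.39, 6.81, 2.78 and 5.66 FPKM, and beta samples 1 to 4 gave 2.73, 4.15, 0.143 and 0.980 FPKM. All delta samples lay above all alpha samples, though the lowest of the former (8.73) was close to the highest of the latter (8.39), and alpha and beta cells overlapped. Alpha cells averaged 5.48 ± 2.26 FPKM (SD, n = 5), beta cells 2.00 ± 1.79 (SD, n = 4) and delta cells 11.5 ± 2.01 (SD, n = 6), which makes delta cells 5.74 times as high as beta cells and 2.09 times as high as alpha cells.

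Foxa3 passed the test in delta against beta cells, with a log2 difference of 2.26 (SE 0.395, 95% interval 1.43 to 3.10; adjusted p = 0.00100, limma; exact two-sided permutation p = 0.00952). Against alpha cells the samples also separated completely (exact two-sided permutation p = 0.00433), yet the difference of 1.00 (95% interval 0.22 to 1.79) had an adjusted p of 0.143 in limma. It passed in 2 of 26 alternative fits by limma. These were with only those cell types in the fit (adjusted p = 0.0375) and with the ribosomal set as a covariate (1.17, adjusted p = 0.0403). With each sample left out in turn it passed in 0 of 15 fits (adjusted p 0.0745 to 0.289, limma). Between beta and alpha cells the difference was -1.26 (95% interval -2.13 to -0.39; adjusted p = 0.0742, limma), and it passed without beta sample 2, at -1.60 (adjusted p = 0.0178, limma). In the higher set Foxa3 was at 6.33 FPKM in alpha cells, 4.15 in the 1 beta sample and 13.4 in delta cells. In the lower set it was at 4.22, 1.28 and 10.5 FPKM in the same order. In the higher set alone the difference between delta and beta cells was 1.49 (adjusted p = 0.184, limma).

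Foxa2 exceeded Foxa3 in all 15 samples. The ratio of their FPKM was narrowest in delta cells, from 1.46 to 2.24, against 1.25 to 5.63 in alpha cells and 3.45 to 23.4 in beta cells. Across the 15 samples log2 values of Foxa2 and Foxa3 had a Pearson r of 0.784, and of 0.681 once each cell type's mean was removed. Hnf4a and Foxa3 had an r of 0.483, and of -0.589 with those means removed. These are descriptions, since samples of a cell type share their mouse line and the ribosomal sets.

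Foxa1, which acts with Foxa2 in the early endoderm, was listed at 0 in 4 of 5 alpha, 4 of 4 beta and 2 of 6 delta samples. It was at 0.0874 FPKM in alpha sample 4 and at 0.0813, 0.0607, 0.0369 and 0.0135 FPKM in delta samples 3 to 6. For scale, a single read on its longer transcript would be worth 0.0110 FPKM in delta sample 3 and 0.0451 FPKM in alpha sample 2, the deepest and the shallowest of the samples with a known depth. Foxa1 was under the limit of 1 FPKM for the fit across genes, and by exact two-sided permutation tests it gave p = 0.143 between delta and beta cells, 0.524 between delta and alpha cells and 1 between beta and alpha cells. The depth of the beta samples is unknown, and no difference passed.

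**Figure D3:**
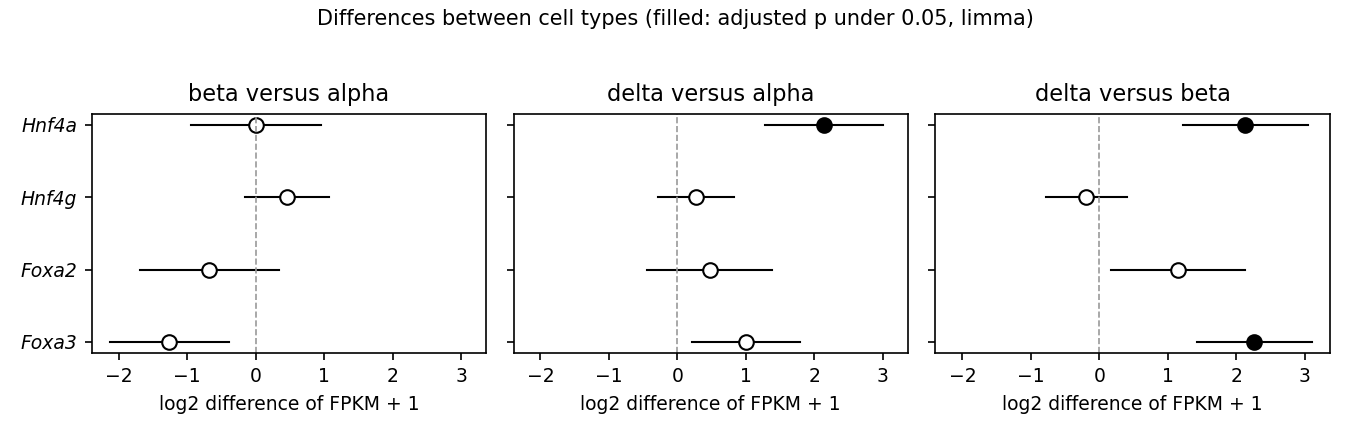
Differences in mean log2(FPKM + 1) between cell types for the 4 members tested (horizontal axis, first-named minus second-named cell type), with 95% confidence intervals as lines; filled points have an adjusted p under 0.05 by limma. Filled points are Hnf4a in both comparisons with delta cells and Foxa3 in delta against beta cells.

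Ordered by level in delta cells, the members ran Foxa2 (20.8 FPKM), Hnf4a (12.7), Foxa3 (11.5), Hnf4g (2.01) and Foxa1 (0.0321). Hnf4a and Foxa3 differed there by less than the SD of either, and Foxa2 overlapped Hnf4a in range. In alpha cells the order was Foxa2, Foxa3, Hnf4a, Hnf4g and Foxa1, where the ranges of Foxa2 and Foxa3 and those of Hnf4g and Foxa1 did not overlap and the other neighbours did. In beta cells Foxa2 was followed by Hnf4g, Hnf4a and Foxa3, and the ranges of those 3 overlapped each other and that of Foxa2. In beta sample 3 Hnf4a (5.03 FPKM) was above Foxa2 (3.34 FPKM). Hnf4a ranked 3905th of 38283 genes by mean FPKM in delta cells, 9279th in alpha cells and 8938th in beta cells. By the F-test for any difference between the cell types, adjusted p was 0.00162 for Hnf4a, 0.00249 for Foxa3, 0.214 for Foxa2 and 0.508 for Hnf4g (limma), so 2 of the 4 tested members passed, against 16.0% of all genes.

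Since delta cells came from a separate mouse line and sort, transcripts of other pancreatic cells were read beside these results. The summed FPKM of 12 acinar genes was 0.122 to 99.9 in alpha, 0.0493 to 19.4 in beta and 21.0 to 584 in delta samples. The delta sums thus lay above the beta sums. Among the 12 genes only Cela1 by itself separated delta from beta samples, at 17.9 FPKM or more against at most 3.58. Of the 9 acinar genes tested, 1, the elastase gene Cela1, was higher in delta compared with alpha cells (log2 difference 3.52; adjusted p = 0.00187, limma) and in delta than in beta cells (4.71; adjusted p = 0.000194, limma), while the acinar transcription factor gene Ptf1a was listed at 0 in all 15 samples. Without delta samples 1, 2 and 4, whose acinar sums were the highest and which were left out after the data were seen, Hnf4a was above alpha cells by 2.18 (adjusted p = 0.0362, limma) and above beta cells by 2.17 (adjusted p = 0.0352, limma). Foxa3 was then above beta cells by 2.07 (adjusted p = 0.0279, limma) and above alpha cells by 0.81 (adjusted p = 0.464, limma). The acinar sums of the remaining delta samples, Cela1 included, were 21.0 to 65.2 FPKM. They were within the alpha range but above the beta range. The part of acinar RNA in the levels of the members was not tested further.

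Of 6 ductal genes, 4 were tested and 1 passed, Sox9, at 1.29 FPKM in delta cells and at most 0.0131 in any alpha or beta sample. Muc1, under the limit for the fit, was at 0.621 to 1.40 FPKM in delta, at most 0.119 in alpha and at most 0.490 in beta samples. Krt19 was listed at 0 in all 6 delta samples. The ductal sums were 25.4 to 172 FPKM in alpha, 8.56 to 24.7 in beta and 20.4 to 101 in delta samples. They came mostly from Spp1 (means of 54.8, 9.05 and 26.3 FPKM in that order) and Krt7 (9.36, 7.73 and 11.7). The part of ductal RNA in the levels of the members was not tested. The pancreatic polypeptide cell genes Ppy and Pyy summed to 57416 to 85551 FPKM in alpha, 62.9 to 283 in beta and 35524 to 113972 in delta samples, so they separated beta cells from both other types, and their part in the delta against beta differences was likewise not tested. Of 4 stellate cell genes, 1 was tested, the collagen gene Col1a2, which was lower than in alpha cells in both beta (-1.53; adjusted p = 0.00677, limma) and delta cells (-1.52; adjusted p = 0.00263, limma). The stellate sums were 0.848 to 3.79 FPKM in alpha samples, with alpha 4 (3.79) and alpha 5 (3.72), the alpha samples highest in Hnf4a, above the others, and they were at most 0.00687 in beta and 0.0576 in delta samples. The alpha sums came almost wholly from Col1a2, since Col1a1 and Pdgfrb were listed at 0 in all alpha samples and Col3a1 averaged 0.00155 FPKM there; Col1a1 was listed at 0 in all 15 samples. The sums of 4 endothelial genes were low but highest in delta samples, at 0.150 to 0.996 FPKM against 0 to 0.151 in alpha and 0 to 0.0902 in beta samples, with Pecam1 above 0 in all 6 delta samples (mean 0.322 FPKM), Kdr and Plvap each listed at 0 in 1 and Cdh5 in 4 of them, and their part in the delta differences was not tested. Immune sums were 0.328 to 1.32 FPKM in alpha, 0 to 2.79 in beta and 0 to 2.81 in delta samples.

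Hnf4aos, antisense to the 5′ part of Hnf4a, was at 0.266 FPKM in alpha sample 3 and listed at 0 in the other 14 samples. The counting is not stated to use strand, so reads where it overlaps Hnf4a cannot be told apart. Among the Onecut genes, liver-enriched factors also known as the HNF6 family, Onecut2 had the highest means, 0.437 FPKM in alpha, 0.302 in beta and 0.104 in delta cells. Onecut1 and Onecut3 were below 0.1 FPKM in every sample. None of these had a mean above 1 FPKM in any cell type, so they were not tested by limma.

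Of the 41 other forkhead genes, 13 were tested. Delta cells were higher than alpha cells in 1 of them and higher than beta cells in 3, and lower in none. Between beta and alpha cells limma called 0, and 1, Foxp1, had an unadjusted p under 0.05. For scale, 5.33% of all 14405 genes tested were called upwards in delta cells against alpha cells, and 11.7% against beta cells. Calls downwards were fewer, at 213 and 431 genes in the same order. Beta against alpha cells gave calls for 7.66% in either direction. Foxo6, of the insulin-responsive FOXO branch, was at 1.18 ± 1.09 (SD, n = 5) FPKM in alpha, 0.709 ± 0.237 (SD, n = 4) in beta and 4.05 ± 1.73 (SD, n = 6) in delta cells. It was higher in delta cells by 1.28 than in alpha cells (adjusted p = 0.0302, limma) and by 1.499 than in beta cells (adjusted p = 0.0106, limma). The repressors Foxp4 (log2 difference 2.26; adjusted p = 0.00394, limma) and Foxp1 (1.56; adjusted p = 0.0129, limma) were higher in delta than in beta cells. The median log2 difference of the 13 was 0.79 from alpha to delta and 0.58 from beta to delta cells, where that of all genes tested was 0.13 and 0.30. The median of the 4 tested members was 0.74 and 1.64.

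**Figure D4:**
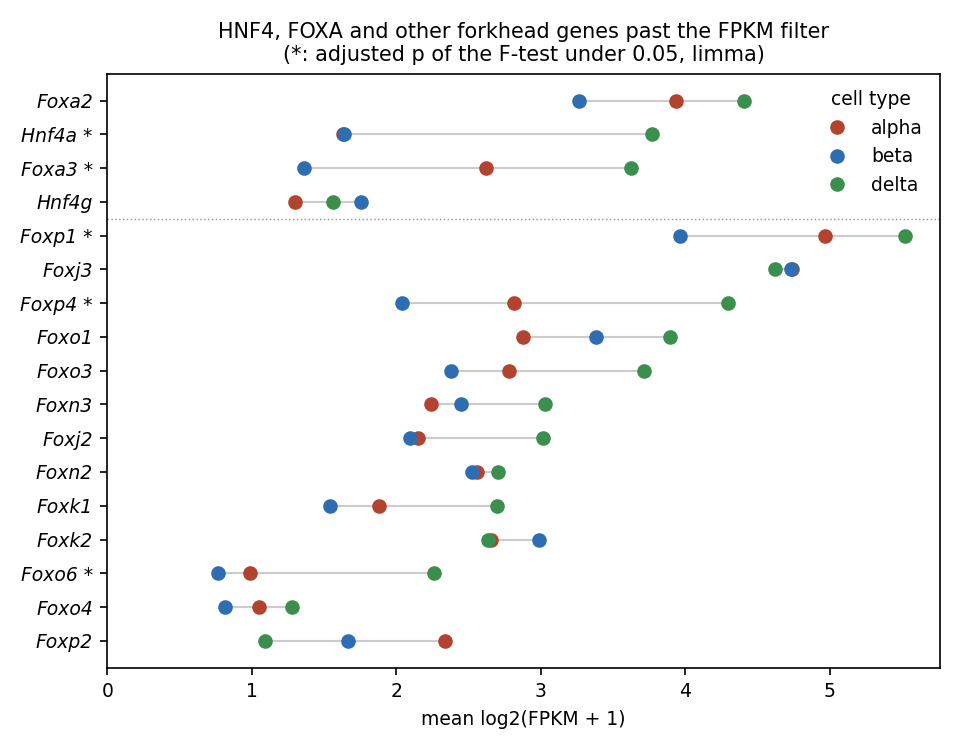
Mean log2(FPKM + 1) on the horizontal axis in alpha, beta and delta cells for the 4 members tested (top) and 13 other forkhead genes (bottom); grey lines join the lowest and highest mean, and asterisks mark an adjusted p under 0.05 by the limma F-test. Asterisks stand at Hnf4a, Foxa3, Foxp1, Foxp4 and Foxo6.

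HNF4 shares its direct-repeat elements with other nuclear receptors, 7 of whose 11 listed genes were tested. The fat cell regulator Pparg was higher in beta than in alpha cells (log2 difference 2.48; adjusted p = 3.86e-05, limma) and lower in delta cells than there (-2.52; adjusted p = 1.5e-05, limma), with means of 5.29 FPKM in beta, 0.0538 in alpha and 0.0208 in delta cells. Rxra, a common partner receptor, was lower than in alpha cells in both beta (-2.23; adjusted p = 0.00189, limma) and delta cells (-1.47; adjusted p = 0.0158, limma). Its paralogue Rxrb was lower in beta compared with alpha cells (-1.47; adjusted p = 0.0200, limma) and higher in delta than in beta cells (1.39; adjusted p = 0.0123, limma). A list of 17 genes was read for coregulators of HNF4 and FOXA, although 1 of them, Grip1, encodes a glutamate receptor interacting protein and is no such coregulator. Of the 17, 15 were tested, Grip1 among them, and 1 passed. It was the acetyltransferase gene Kat2b, lower in delta than in beta cells (-1.48, adjusted p = 0.0304, limma). Of all genes tested, 14.7% passed in that comparison in either direction. Ppargc1a, a coactivator of HNF4 alpha in liver, was at 4.06 ± 2.97 (SD, n = 5), 3.58 ± 2.82 (SD, n = 4) and 3.76 ± 1.78 FPKM (SD, n = 6) in alpha, beta and delta cells.

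Textbook target genes of HNF4A from liver, gut and islet were called in both directions. Of 15 such genes, 8 were tested. Delta cells were higher than alpha cells in 1 and lower in 1, and compared with beta cells they were higher in 0 and lower in 2. Of all genes tested, 6.81% passed in either direction between delta and alpha cells and 14.7% between delta and beta cells. Vil1, which encodes the microvillus protein villin, was the 1 higher in delta compared with alpha cells (3.51; adjusted p = 6.4e-07, limma), at 0.419 ± 0.342 (SD, n = 5) FPKM in alpha, 9.57 ± 3.04 (SD, n = 4) in beta and 15.4 ± 4.18 (SD, n = 6) in delta cells. The transthyretin gene Ttr, an alpha cell marker, was lower in delta cells than in alpha cells (-7.76; adjusted p = 8.29e-08, limma) and than in beta cells (-2.30; adjusted p = 0.00845, limma). Slc2a2, the glucose transporter of mouse beta cells, was at 236 FPKM in beta cells, 1.84 in alpha and 2.53 in delta cells. In beta against alpha cells Vil1 and Slc2a2 were higher, and Ttr and the apolipoprotein gene Apoa2 were lower. Pklr, the liver pyruvate kinase gene, was at 4.50 FPKM in delta, 1.29 in alpha and 1.67 in beta cells, which did not pass.

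Of 14 textbook FOXA targets, 8 were tested. The pancreas regulator Pdx1 was at 1.83 ± 1.40 (SD, n = 5) FPKM in alpha, 19.0 ± 8.70 (SD, n = 4) in beta and 19.3 ± 5.22 (SD, n = 6) in delta cells, higher than alpha cells by 2.85 in beta (adjusted p = 0.000160, limma) and 2.92 in delta cells (adjusted p = 3.71e-05, limma). Hadh, a brake on insulin release, was higher than in alpha cells by 4.23 in beta (adjusted p = 0.000219, limma) and 3.83 in delta cells (adjusted p = 0.000169, limma). Kcnj11, the pore of the ATP-sensitive potassium channel, was at 14.5 FPKM in alpha, 10.2 in beta and 28.2 in delta cells, with delta cells above beta cells (1.38; adjusted p = 0.0196, limma). Its partner Abcc8 was at 38.3, 35.5 and 95.6 FPKM in the same order, with an adjusted p of 0.0666 between delta and beta cells (limma). The remaining calls were the cell type markers Gcg and Ttr, lower outside alpha cells, and Ucn3, which was higher in beta cells than in the other types. In all, 2 of the 8 were higher and 2 lower in delta compared with alpha cells, and 1 was higher and 2 lower than in beta cells. The shares of all genes called in either direction were 6.81% and 14.7% in these comparisons.

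The tested genes whose log2(FPKM + 1) followed each member most closely over the 15 samples, out of 14404, are a description of likeness only. For Hnf4a they were Lrp8 (Pearson r = 0.934), Tmtc1 (0.924), Lingo1 (0.921), Tex2 (0.919) and Snph (0.912). For Foxa3 they were Limd1 (0.949), 2010107G23Rik (0.942), B9d2 (0.930), Vat1l (0.928) and AC102815.1 (0.926). Foxa2 was followed by Fam3a (0.914), Abhd4 (0.900), Cenpb (0.894), Abtb1 (0.893) and Txndc5 (0.891). The closest genes to Hnf4g were less alike, at 0.832 to 0.841, and were Dmtf1, A930019D19Rik, Kifap3, Azi2 and Dnaja1. No member was among the 5 closest to another.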

How the data were processed

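RNA of 15 sorted samples was amplified (NuGEN), sequenced as single 50 nt reads and aligned by the authors to GRCm38 with TopHat (TopHat2 2.0.8 in the submitters' processing notes; the methods name another version). The authors deposited values in FPKM for each gene and sample, made with Cufflinks 2.2.1. Their edgeR test used raw counts, which were not used here, so limma 3.58.1 in R 4.3.3 (lmFit, eBayes with a trend) was applied to log2(FPKM + 1), with a pseudocount of 1, a mean per cell type, all 15 samples fitted together and p-values adjusted by Benjamini-Hochberg over 14405 genes with a mean above 1 FPKM in at least 1 cell type. An adjusted p under 0.05 was a call. Exact two-sided permutation tests used SciPy 1.17.1 on the same log values. Other steps used Python 3.11.15, numpy 2.4.6, pandas 2.3.3 and matplotlib 3.10.9.

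Groups and replicate numbers came from the sample titles. Members and gene lists were chosen with earlier results of these data known. Genes were named as follows: the 5 members; their relatives by symbol (some items of the lists are not reported here); the 5 tested genes closest to each member by Pearson r; other forkhead genes called in 2 or more comparisons, and any counted among 5 or fewer; called genes of the receptor, coregulator and target lists, up to 6 a list by F statistic; and cell type markers. Names of list members given with values but without a call (Ppargc1a, Pklr, Abcc8) were chosen after their values were seen. Gene positions are from GENCODE M21 (GRCm38), which held 36425 of the 38283 identifiers; promoters are from RefSeq. Depth was read in genes with 1 transcript longer than 1000 nt, where low values fall on whole multiples (within 0.05 of a read); a sample counted as resolved where at least 20% of values did, a limit set after they were seen. Ribosomal sets were split at 50000 FPKM. Alternatives were other filters, pseudocounts, scalings, sample choices, a ribosomal covariate and the replicate block.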

Additional observations from a re-analysis of the deposited data

Results flagged for a closer look

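Foxa1 in alpha cells met the criterion of Dixon's test at the 95% level for 1 sample apart from the rest of its group: alpha sample 4 was at 0.0874 FPKM and the other 4 alpha samples were listed at 0. With the others at exactly 0, any value above 0 would have met it, so nothing is read from this beyond the value. Of the 14 groups of samples examined over the 5 members, this was the 1 picked out.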

How the results depend on the processing

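Of 313 differences of members recomputed under alternative settings, 288 kept their direction and their side of the threshold, 4 lost the call, 8 gained one and 13 changed sign, none of them called on either side: Hnf4a, beta minus alpha, with the ribosomal covariate (-0.29), in the lower set (-0.74) and in leave-one-out fits (-0.31 to 0.31); Foxa2 in the higher set for beta minus alpha (1.23) and delta minus beta (-0.14), and in the lower set for delta minus alpha (-0.10); and Hnf4g for delta minus alpha with quantile normalization (-0.056) and for delta minus beta in the higher set (0.0076) and in leave-one-out fits (-0.35 to 0.019). Beside these, the log2 ratio of mean FPKM, which has no test, changed sign for Hnf4a in beta minus alpha (-0.11 in place of 0.01) and for no other member difference. The cause of these changes was not tested. The count of genes called in beta against alpha cells (1104) was 520 with only those cell types in the fit, 2072 with median-ratio size factors, 2056 with quantile normalization, 701 in the higher ribosomal set alone, and 651 (without beta sample 4) to 1698 (without beta sample 2) with each sample left out in turn. In delta against alpha cells (981) it was 518 with a filter of 5 FPKM, 629 in the lower set and 153 in the higher set. In delta against beta cells (2114) it was 1319 with a filter of 5 FPKM, 1083 without delta samples 1, 2 and 4 and 728 in the higher set; fewer genes or samples were tested in these. The runs within sets and without those delta samples were chosen after seeing the data. Of members, 1 was called in beta against alpha cells with size factors (Foxa3, -1.21; adjusted p = 0.0267), with quantile normalization (Foxa3, -1.13; adjusted p = 0.0363), in the lower set (Foxa2, -1.61; adjusted p = 0.0465) and without beta sample 2 (leave-one-out 0 to 1 members; Foxa3 -1.60 to -0.87, adjusted p 0.0178 to 0.195). In delta against alpha cells 2 were called with only those cell types in the fit or the ribosomal covariate (Foxa3 joined, 1.00 and 1.17; adjusted p = 0.0375 and 0.0403) and 0 in the lower set (Hnf4a 1.27; adjusted p = 0.176) and the higher set (Hnf4a 2.62; adjusted p = 0.0750). In delta against beta cells 0 were called in the higher set (Hnf4a 2.58, Foxa3 1.49; adjusted p = 0.0705 and 0.184), and Foxa2 joined in the lower set (1.51; adjusted p = 0.0174) and without beta sample 2 (leave-one-out 2 to 3 members; Foxa2 0.76 to 1.69, adjusted p 0.00572 to 0.288). With each sample left out in turn Hnf4a was 1.87 to 2.45 above alpha and 1.93 to 2.45 above beta cells. The replicate numbers were not taken to pair samples: over 13 same-numbered pairs r was -0.152 to 0.281, and 5 pairs exceeded 0.1, among them the 3 pairs numbered 2 (0.268 to 0.281), whose samples all lay in the higher set. With the replicate block in the fit of all samples, 1227, 831 and 2001 genes were called in beta against alpha, delta against alpha and delta against beta cells, and Hnf4a was 2.16 and 1.99 higher in delta than in alpha and beta cells; a paired fit of alpha and beta cells alone (replicates 1 to 4) called 0 genes by limma (2751 at an unadjusted p under 0.05). Scaling by size factors moved the median difference of all genes from -0.13, 0.13 and 0.30 to about 0.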
